A study of Mus musculus with 36 samples.

Results

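Meg3, Rian and Mirg are long noncoding RNA genes that lie one after another on mouse chromosome 12. They were chosen as the 3 rows of that name among 13862 genes of the RNA-seq table, and the 11 DNase I hypersensitive sites (DHSs) that the DNase-seq table lists between 109.4 and 109.8 Mb of chromosome 12, of 98170 DHSs in all, were set beside them. RNA and accessible chromatin came from the livers of the same 18 male mice. C57BL/6 mice (an inbred strain, 9 to 11 wk old at the start) and B6C3F1 mice (hybrids with a C57BL/6 mother and a C3H/He father, 4 to 5 wk old at the start) drank water with 0.05% (wt/vol) phenobarbital (PB) or water alone (vehicle) for 91 d. Each strain had 5 PB-treated and 4 vehicle-treated mice, which are numbered as in the final digit of their animal IDs. The strains also differed in age, supplier and study, and strain cannot be told apart from these. The labels name no transgene or deletion.

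The 3 genes belong to the Dlk1-Dio3 imprinted domain. In this domain the noncoding RNAs are made from the chromosome inherited from the mother, and the protein-coding genes Dlk1, Rtl1 and Dio3 from the chromosome inherited from the father, under the control of a differentially methylated region upstream of Meg3. Meg3 is a nuclear RNA with growth-restraining activity, Rian is the host of a cluster of C/D box small nucleolar RNAs (snoRNAs), and Mirg is the host of a large cluster of microRNAs. The RNAs are abundant in the embryo and the placenta and scarce in the adult liver. PB activates the nuclear receptor CAR in hepatocytes.

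In mm10 coordinates, Meg3 (gene 17263) spans 109540996 to 109571729 on the plus strand, with 12957 bp of exons and 2 annotated microRNA genes inside it on the same strand. Rian (gene 75745) follows at 109603945 to 109661716, with 3584 bp of exons, 3 microRNA genes and 11 snoRNA genes. Mirg (gene 100040724) lies at 109734981 to 109749458, with 1300 bp of exons and 10 microRNA genes. The window held 2 more rows of the RNA-seq table, Rtl1 on the minus strand and the snoRNA gene AF357359 within Rian. Dlk1, Dio3 and the microRNA genes have no row and were not analysed here.

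The sequences of the upstream DHS that the study lists for Meg3 and of 3 promoters (for Meg3, that of its first annotated start) are shown first, because the RNA levels and DHS counts are compared at these places. The upstream DHS, called DHS 5 by its order in the window, lies at chr12:109527544-109527817 in GRCm38, 274 bp long, with its centre 13.3 kb before the Meg3 start. RefSeq places it within a predicted noncoding gene on the minus strand, Gm34081, outside its exons. It reads as follows on the plus strand of the C57BL/6J reference, with motif matches in capitals.
DHS 5: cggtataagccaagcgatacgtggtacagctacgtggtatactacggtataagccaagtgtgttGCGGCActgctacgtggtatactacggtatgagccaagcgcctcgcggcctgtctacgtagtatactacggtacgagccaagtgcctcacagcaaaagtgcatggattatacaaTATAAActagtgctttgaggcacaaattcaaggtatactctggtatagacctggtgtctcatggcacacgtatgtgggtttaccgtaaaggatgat

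DHS 5 is rich in CpG and made in part of repeated stretches. It holds 16 CpG dinucleotides, an observed to expected ratio of 1.05, whereas the ratios in the other 10 DHSs of the window lay between 0.14 and 0.56. Among 13941 DHSs whose width was within 10% of its own, the median was 3 CpG dinucleotides and 3.89% had at least as many. A stretch of 22 bp, gctacgtggtatactacggtat, occurs more than once in DHS 5, with copies starting at bases 29 and 73. The longest repeated stretch was 8 bp in the median DHS of similar width, and 4.20% had one at least as long. The capitals in DHS 5 mark 1 match to TGCCGC on its reverse strand, the core that the imprint-protecting zinc finger protein ZFP57 binds when methylated, and 1 match to TATAAA. Among the DHSs of similar width, 4.48% held the first motif on either strand and 12.6% the second.

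The promoters are from RefSeq (GRCm38.p6), each with 250 bases before and 50 after an annotated start on the plus strand, so the last 50 bases are transcribed. Capitals again mark motif matches.
Meg3, chr12:109540746-109541045: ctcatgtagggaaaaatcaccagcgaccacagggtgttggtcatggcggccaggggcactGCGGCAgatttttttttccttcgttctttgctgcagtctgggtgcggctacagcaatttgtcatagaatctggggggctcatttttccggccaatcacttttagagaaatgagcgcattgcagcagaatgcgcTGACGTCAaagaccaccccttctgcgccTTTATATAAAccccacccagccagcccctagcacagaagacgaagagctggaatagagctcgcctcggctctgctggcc
Rian, chr12:109603695-109603994: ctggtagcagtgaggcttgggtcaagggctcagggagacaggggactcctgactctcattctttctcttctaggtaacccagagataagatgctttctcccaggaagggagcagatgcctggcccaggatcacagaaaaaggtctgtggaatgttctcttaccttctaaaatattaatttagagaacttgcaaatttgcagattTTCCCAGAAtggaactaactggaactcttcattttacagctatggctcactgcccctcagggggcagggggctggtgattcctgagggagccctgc
Mirg, chr12:109734731-109735030: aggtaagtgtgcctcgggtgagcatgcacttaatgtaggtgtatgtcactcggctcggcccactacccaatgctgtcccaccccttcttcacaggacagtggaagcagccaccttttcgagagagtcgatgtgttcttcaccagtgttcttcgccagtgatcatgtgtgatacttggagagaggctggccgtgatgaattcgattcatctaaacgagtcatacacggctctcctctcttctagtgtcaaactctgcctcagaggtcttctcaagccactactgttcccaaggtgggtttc

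The Meg3 promoter carried TGACGTCA, the full site of the cAMP response element family, which 1.79% of 32851 promoters held, together with TATAAA on both strands in overlapping positions (13.6% of promoters) and TGCCGC (11.6%). The Rian promoter carried 1 match to TTCNNNGAA, the STAT element (8.30% of promoters), and the Mirg promoter none of the motifs searched. These were also the nuclear receptor half-site AGGTCA, the CAR direct repeat DR4, CTTTGAT for TCF/LEF factors, TGTTTAC for forkhead factors, GTCTAGAC for Smads and the CTCF core, each on both strands. AGGTCA was present in DHSs 1, 3, 7, 8 and 9 of the window, with 4 copies in DHS 3, and in 28.1% of the DHSs of the width of DHS 5 and 36.4% of those of the width of DHS 8, within 10%. It was also present once in the promoter of a second annotated Meg3 start, chr12:109545148-109545447, which is not printed. The DR4 repeat was found in none of the 11 DHSs and in 0.0359% of the DHSs of the width of DHS 5. The Meg3 promoter held 13 CpG dinucleotides, the Mirg promoter 10 and the Rian promoter 0.

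RNA-seq reads counted in genes ranged from 23.8 to 30.3 M per mouse and DNase-seq reads counted in DHSs from 7.01 to 58.1 M. DNase-seq depth differed by strain. Its median was 41.4 M with vehicle and 25.1 M with PB in C57BL/6, and 16.8 and 17.6 M in B6C3F1. The shallowest DNase-seq library came from vehicle-treated B6C3F1 mouse 3. Its group had its lowest Meg3, Rian and Mirg values and its lowest DHS 5 count in this mouse. Cyp2b10, the classical CAR target, was between 5.51 and 16.7 CPM in the vehicle-treated mice of both strains and between 897 and 1737 CPM in the PB-treated mice, so each mouse matched its treatment label. Of 5 hepatocyte markers tested, 0 passed both cutoffs given below. Of all genes, 0.874% passed in C57BL/6 and 2% in B6C3F1, so a count of 0 is near the background. An unadjusted p under 0.05 was found for 3 markers in C57BL/6 and 2 in B6C3F1. Of all 13838 genes, 1711 and 3241 had such a p. The summed level of the 5 markers was 79823 to 95614 CPM with vehicle and 75416 to 84583 with PB in C57BL/6, and 96765 to 101422 and 77624 to 92235 CPM in B6C3F1, where the groups did not overlap. The part of this shift in the results below was not tested.

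PB raised all 3 RNAs in both strains. Meg3 rose 17.5-fold in C57BL/6 and 14.5-fold in B6C3F1, Rian 17.3-fold and 18.6-fold, and Mirg 5.22-fold and 11.2-fold, as fitted on log2(CPM + 0.1), a scale that understates the change of low genes. CPM is the usual depth-scaled read count, taken per M (mega) reads in genes after scaling between samples. No vehicle-treated mouse reached the lowest PB-treated mouse of its strain for any of the 3. Calls required an FDR of at most 0.01 (Benjamini-Hochberg, limma over 13838 genes) together with an absolute log2 FC of at least 0.58. In bulk liver, more cells with these RNAs and more RNA per cell cannot be told apart.

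In C57BL/6, Meg3 was 0.713, 0.341, 1.13 and 1.10 CPM in vehicle-treated mice 1, 2, 3 and 5, from 9 to 28 reads each. PB-treated mice 1 to 5 had 8.90, 14.1, 9.83, 23.7 and 24.1 CPM, from 247 to 607 reads. The PB-treated mice fell into a lower set of 3 and an upper set of 2, mice 4 and 5, and all lay above the vehicle-treated mice. Meg3 had a log2 FC of 4.13 here (SE 0.52, limma FDR 0.000211). In B6C3F1, the vehicle-treated mice had 3.46, 4.50, 0.564 and 2.60 CPM and the PB-treated mice 37.5, 21.9, 46.7, 40.3 and 27.5 CPM. Vehicle-treated mouse 3 was at the level of C57BL/6 vehicle-treated mice while the other 3 were above all of those. The log2 FC was 3.85 (SE 0.52, limma FDR 0.000237).

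Rian, the snoRNA host, was likewise higher in every PB-treated mouse. In C57BL/6 it was 0.963, 0.645, 1.61 and 0.821 CPM with vehicle and 11.7, 15.8, 10.1, 32.1 and 32.7 CPM with PB, again highest in mice 4 and 5 (log2 FC 4.11, SE 0.46, limma FDR 7.07e-05). In B6C3F1 it was 2.91, 3.90, 0.810 and 2.42 CPM with vehicle and 46.5, 28.6, 66.2, 49.4 and 32.2 CPM with PB (log2 FC 4.22, SE 0.46, limma FDR 2.95e-05). As with Meg3, vehicle-treated mouse 3 was the lowest of its group, and PB-treated mice 2 and 5 were the lowest of theirs.

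Mirg was close to the limit of detection without PB. C57BL/6 vehicle-treated mice had 0, 0, 3 and 2 reads (0, 0, 0.121 and 0.0782 CPM), and a count of 0 allows up to 3 reads, which is 0.107 to 0.121 CPM in these libraries, for counting error only. PB-treated C57BL/6 mice had 0.456, 0.647, 0.318, 1.17 and 0.872 CPM, from 8 to 30 reads (log2 FC 2.38, SE 0.41, limma FDR 0.000949). B6C3F1 mice had 0.136, 0.403, 0 and 0.112 CPM with vehicle and 2.26, 1.72, 3.24, 3.56 and 1.80 CPM with PB (log2 FC 3.49, SE 0.41, limma FDR 4.51e-06). Because the pseudocount holds down the fold of such a low gene, the ratio of summed reads per depth is also given. Over the group it was 14.4 (95% exact interval 5.94 to 45.3, counting error only) in C57BL/6 and 15.3 (9.64 to 25.7) in B6C3F1, compared with 19.5 and 12.4 for Meg3 and 20.1 and 17.7 for Rian.

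**Figure D1:**
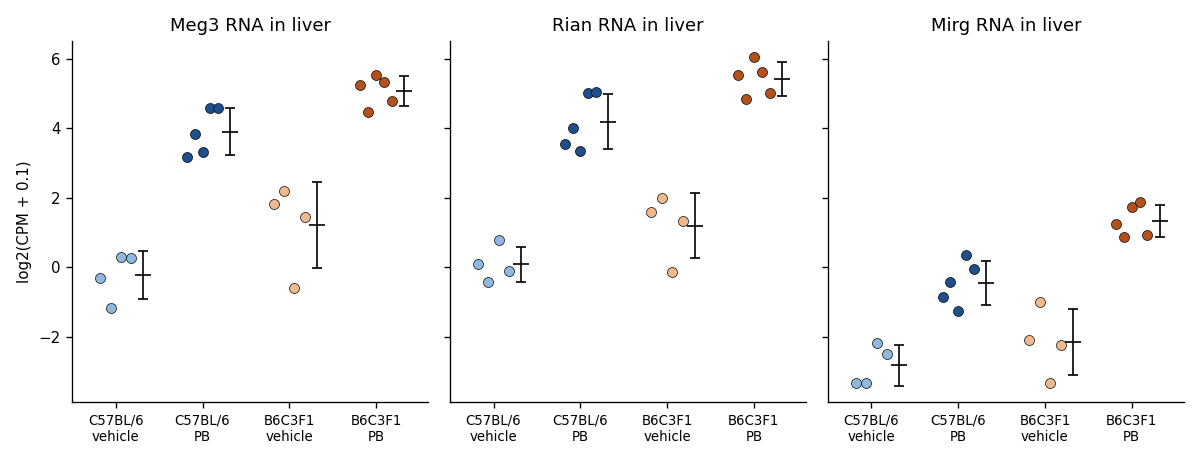
Meg3, Rian and Mirg RNA per mouse as log2(CPM + 0.1), with 4 vehicle-treated and 5 PB-treated mice per strain; points are mice, the bar at the right of each group its mean and SD. For each gene the PB-treated mice of a strain lie above all its vehicle-treated mice, and the 5 PB-treated B6C3F1 mice lie highest for Mirg without overlap with PB-treated C57BL/6 mice.

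All 3 genes were thus called higher in both strains, against 0.845% of all genes tested in C57BL/6 and 1.55% in B6C3F1. Mirg entered the test only through its PB-treated groups, because it did not reach 0.4 CPM in 3 vehicle-treated mice of a strain. Groups that did not overlap in the higher direction were found for 4.57% and 5.41% of all genes. Two-sided exact permutation tests of the 4 against 5 mice gave p = 0.00794 for each gene and strain, the smallest p this design allows. Ranked by log2 FC among 13838 genes, Meg3 was at place 7 in C57BL/6 and 19 in B6C3F1, Rian at 8 and 15, and Mirg at 29 and 26. With a pseudocount of 1 in place of 0.1, Mirg in C57BL/6 had a log2 FC of 0.67 and an FDR of 0.01998 and was not called.

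Per kb of annotated exon, Rian was the most abundant of the 3. The length was the union of exons over the curated transcripts, 3 for Meg3 and 1 each for Rian and Mirg. Which transcripts the reads came from was not tested, and the order rests on these lengths. In PB-treated B6C3F1 mice it reached 12.4 ± 4.19 CPM per kb of exon (SD, n = 5), Meg3 2.69 ± 0.769 and Mirg 1.94 ± 0.645, and in PB-treated C57BL/6 mice 5.72 ± 3.09, 1.24 ± 0.568 and 0.533 ± 0.260 (SD, n = 5). In vehicle-treated mice Rian was at 0.282 ± 0.117 in C57BL/6 and 0.700 ± 0.360 CPM per kb in B6C3F1 (SD, n = 4), and Meg3 at 0.0632 ± 0.0285 and 0.215 ± 0.129. Reads that overlap 2 annotated genes were discarded by the authors' counting, so reads over host exons shared with an annotated snoRNA or microRNA gene are not in the counts of their hosts.

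The groups kept one order for each gene by mean CPM: vehicle-treated C57BL/6, vehicle-treated B6C3F1, PB-treated C57BL/6 and PB-treated B6C3F1. Mean Meg3 was 0.819 ± 0.370, 2.78 ± 1.67, 16.1 ± 7.36 and 34.8 ± 9.97 CPM in that order (SD, n = 4, 4, 5 and 5). Without PB the strains overlapped for all 3 genes, and none was called (limma FDR 0.0793 for Meg3, 0.125 for Rian and 0.292 for Mirg). The log2 difference of B6C3F1 over C57BL/6 was 1.45 for Meg3 (95% interval 0.27 to 2.63), 1.12 for Rian (0.07 to 2.16) and 0.67 for Mirg (-0.23 to 1.57). The background shares were 1.73% of genes called higher in B6C3F1 and 11.9% with groups that did not overlap. Vehicle-treated B6C3F1 mouse 3 decided the value of Meg3 here: without it the log2 difference was 2.05 with an FDR of 0.0049, past the cutoff.

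With PB, Mirg differed between the strains and the other genes did not pass the cutoff. Mirg was higher in B6C3F1 by 1.77 on the log2 scale (SE 0.39, limma FDR 0.00175), with no overlap between 0.318 to 1.17 and 1.72 to 3.56 CPM. Meg3 was higher by 1.18 (SE 0.49, FDR 0.0877) and Rian by 1.22 (SE 0.44, FDR 0.0482), both with overlapping groups. The background was 2.39% of genes called higher and 10.3% with no overlap, and 1 of the 3 genes was in each class.

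The response to PB itself did not differ detectably between the strains. The difference in log2 FC, B6C3F1 minus C57BL/6, was -0.27 for Meg3 (95% interval -1.85 to 1.31, limma FDR 0.957), 0.11 for Rian (-1.29 to 1.51, FDR 0.982) and 1.11 for Mirg (-0.10 to 2.31, FDR 0.662). The upper bound for Mirg was a response 4.96-fold larger in B6C3F1. By summed reads per depth, the Mirg response was 14.4-fold in C57BL/6 and 15.3-fold in B6C3F1, with the intervals given above. The fitted difference for Mirg rests on 5 reads over the vehicle-treated C57BL/6 mice, where the pseudocount holds down the fold. No gene was called for this contrast by limma or the edgeR quasi-likelihood test (0% of 13838), with 1093 at an unadjusted p under 0.05 in limma, and DESeq2 called 15.

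The proportion of Rian to Meg3 overlapped between all 4 groups. It was 1.35 ± 0.468 and 1.24 ± 0.149 in vehicle- and PB-treated C57BL/6 mice and 1.02 ± 0.282 and 1.27 ± 0.0956 in B6C3F1 mice (SD, n = 4 and 5 each). Exact permutation tests gave p = 0.635 for PB in C57BL/6, 0.103 for PB in B6C3F1, 0.371 for the strains with vehicle and 0.690 with PB. In B6C3F1 the overlap came from vehicle-treated mouse 3 alone, at 1.44. The other vehicle-treated mice had 0.843, 0.866 and 0.929, below all PB-treated mice (1.17 to 1.42). This split was seen after the fact and was not tested, so a constant proportion is not shown. Mirg to Meg3 was 0.0512, 0.0459, 0.0324, 0.0494 and 0.0362 in PB-treated C57BL/6 mice and 0.0604, 0.0786, 0.0694, 0.0882 and 0.0654 in PB-treated B6C3F1 mice. Every B6C3F1 mouse was above every C57BL/6 mouse (two-sided exact permutation test, p = 0.00794, or 0.0635 after Benjamini-Hochberg adjustment over the 8 ratio tests, which misses 0.05). For Mirg to Meg3, p was 0.968 for PB in C57BL/6, 0.127 for PB in B6C3F1 and 1.00 for the strains with vehicle, where 3 of 8 mice had no Mirg read.

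**Figure D2:**
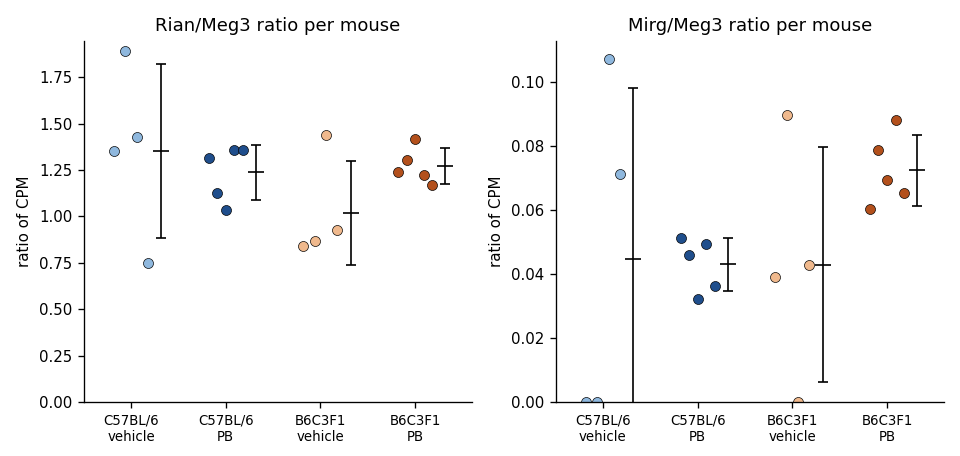
Ratio of Rian to Meg3 CPM and of Mirg to Meg3 CPM per mouse in the 4 groups; points are mice and the bar at the right of each group its mean and SD. Rian to Meg3 overlaps between all groups, for PB against vehicle in B6C3F1 only through vehicle-treated mouse 3. Mirg to Meg3 is 0.0324 to 0.0512 in PB-treated C57BL/6 and 0.0604 to 0.0882 in PB-treated B6C3F1 mice.

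Mice that were high in one of the RNAs were high in the others of their own group. Taking each mouse's deviation from its group mean on log2(CPM + 0.1), Pearson's r over 18 mice was 0.93 for Meg3 and Rian (Spearman's rho 0.92), 0.90 for Meg3 and Mirg (rho 0.88) and 0.90 for Rian and Mirg (rho 0.87). Permutation within groups gave p = 2e-05, 6e-05 and 4e-05 for r and 2e-05, 4e-05 and 5e-05 for rho, and each was 0.00012 for r and 1e-04 for rho after adjustment over 6 relations. Without the 2 mice farthest from the median of the first gene, r was 0.92, 0.88 and 0.83. Without vehicle-treated B6C3F1 mouse 3, left out as a choice made after its values were seen, it was 0.90, 0.87 and 0.85 over 17 mice. The 3 values of a mouse share 1 library and its scaling. Within a group the highest mouse had 3.30 and 2.71 times the Meg3 level of the lowest in vehicle- and PB-treated C57BL/6 mice and 7.98 and 2.13 times in B6C3F1 mice.

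Over the same window, the 2 other rows were also higher with PB. Rtl1, the retrotransposon-derived gene of the paternal chromosome, is antisense to the RNA between Meg3 and Rian and was counted by strand. It had 1, 0, 0 and 1 reads in vehicle-treated and 20, 23, 12, 50 and 63 reads in PB-treated C57BL/6 mice, and 2, 6, 0 and 0 against 94, 42, 85, 81 and 31 reads in B6C3F1 mice. The groups did not overlap, and the log2 FC was 3.34 (SE 0.44, limma FDR 3.57e-05) and 3.95 (SE 0.44, FDR 2.03e-06). Reads of antisense origin that a stranded library leaves on the wrong strand were not measured, and their part in the Rtl1 values was not tested. The snoRNA gene AF357359 had no read in any vehicle-treated C57BL/6 mouse and 87 reads over the 5 PB-treated ones, at least 23.2-fold higher against 3 reads over the group. With the counting error of the 87 reads included, the lower bound of the 95% exact interval was 18.4. In B6C3F1 it had 7 reads with vehicle and 216 with PB, a ratio of 25.7 (95% exact interval 12.2 to 64.6, counting error only). It lies inside Rian, and reads of Rian that cross it cannot be told apart from its own.

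Thus 5 of 5 rows in the window were called higher in each strain. A gene was tested only at 0.4 CPM or more in at least 3 mice of a group. Mirg, Rtl1 and AF357359 reached this only with PB, so they entered through the groups where they were high. Genes of the window below that level in all groups could not be counted, so 5 of 5 is partly set by this filter. With a pseudocount of 1, the C57BL/6 calls of Rtl1 (log2 FC 1.10, FDR 0.0161) and AF357359 (0.72, FDR 0.0194) were lost along with that of Mirg, which left 2 of 5. Of 14 genes within 1 Mb outside the window, 0 were called in either direction, against 0.874% of all genes in C57BL/6 and 2% in B6C3F1, so a count of 0 is near the background. The median log2 FC of these neighbours was -0.04 in C57BL/6 and -0.01 in B6C3F1, beside -0.01 over all genes in each strain. Their values ran from -0.62 to 0.43 and from -0.20 to 0.42. Hsp90aa1, a cytosolic chaperone, had the largest in B6C3F1 at 0.42 (SE 0.19, limma FDR 0.1935). At an unadjusted p under 0.05 there was 1 neighbour in C57BL/6 and there were 2 in B6C3F1. Of all 13838 genes, 1711 and 3241 had such a p.

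Of 29 other imprinted genes tested, among 38 listed, 1 was called higher in each strain and 0 lower, with a median log2 FC of -0.01 in C57BL/6 and 0.00 in B6C3F1. Of all genes, 0.845% and 1.55% were called higher, so 1 of 29 is near the background. The called gene was Peg3, a paternally expressed zinc finger gene, which rose from 4.51 to 7.45 CPM in C57BL/6 (log2 FC 0.72, SE 0.14, limma FDR 0.00342) and from 4.62 to 7.51 CPM in B6C3F1 (log2 FC 0.70, FDR 0.00252). Airn, the noncoding RNA antisense to Igf2r, had a log2 FC of 0.54 and 0.79 (FDR 0.651 and 0.207), Igf2 0.16 and -0.67 (FDR 0.953 and 0.462), and Ndn -0.11 and -0.59 (FDR 0.932 and 0.158). None of the 29 had a log2 FC above 0.79 in B6C3F1, compared with at least 3.49 for the 3 RNAs.

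Genes of the perivenous zone of the liver lobule, which is kept by Wnt/β-catenin signaling, were set beside the 3 RNAs. Of 16, 2 were called higher in C57BL/6 and 1 in B6C3F1, against 0.845% and 1.55% of all genes. None was called lower, and the median log2 FC was -0.13 and 0.04. Cyp1a2, a drug-metabolizing P450 of perivenous cells, rose by 0.91 on the log2 scale in C57BL/6 (limma FDR 0.00343, SE 0.16) and by 1.30 in B6C3F1 (FDR 7.605e-05), and Rhbg, an ammonium transporter, by 0.96 in C57BL/6 (FDR 0.00148), with 0.46 in B6C3F1 (FDR 0.0822). Slc13a3, a dicarboxylate carrier, was at 0.47 and 0.50 (FDR 0.0700 and 0.02045), and Lgr5, a Wnt target gene, at -0.44 and -0.49 (FDR 0.523 and 0.244). Of 9 periportal genes, 0 were called in either direction, which is near the background of 0.874% and 2% of all genes. An unadjusted p under 0.05 was found for 2 of them in C57BL/6 and 3 in B6C3F1. Of all 13838 genes, 1711 and 3241 had such a p. The CAR targets were called higher in 12 of 14 and 13 of 14 cases, with medians of 2.45 and 2.90.

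Of the cell type lists, 6 endothelial, 5 cholangiocyte, 7 stellate cell, 6 Kupffer cell, 1 lymphocyte and 4 proliferation markers were tested, and 0 were called in either strain. With 0.874% of all genes called in C57BL/6 and 2% in B6C3F1, a count of 0 is near the background. The summed endothelial level was 357 to 391 CPM with vehicle and 366 to 432 with PB in C57BL/6, and 331 to 376 and 342 to 389 in B6C3F1. The summed stellate cell level was 403 to 496 and 336 to 403 CPM in C57BL/6 and 377 to 506 and 318 to 420 in B6C3F1, the lower range with PB in each, and its part in the results was not tested. Proliferation markers summed to 10.0 to 14.4 and 9.63 to 19.5 CPM in C57BL/6 and 5.24 to 13.5 and 3.96 to 10.4 in B6C3F1. Over these 6 lists, 3 genes in each strain had an unadjusted p under 0.05, against 1711 in C57BL/6 and 3241 in B6C3F1 of all 13838 genes. Kupffer cell markers summed to 234 to 334 and 215 to 390 CPM in C57BL/6 and 176 to 226 and 181 to 224 in B6C3F1, cholangiocyte markers to 34.4 to 42.8 and 33.8 to 47.0, and 33.5 to 49.9 and 33.5 to 41.7, and the lymphocyte marker Ptprc to 17.1 to 24.0 and 16.6 to 30.8, and 12.4 to 15.3 and 11.7 to 16.0.

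The genes whose profile over the 18 mice was most like that of Meg3 were found by the mean absolute difference of log2(CPM + 0.1) after centring each gene. They were Rian at 0.24, Rtl1 at 0.52, Mirg at 0.58, Cyp2c55 at 0.63 and Nebl at 0.64, and 3 of the 5 lie in the window. This measure holds the PB effect, and Rtl1 and Mirg entered the test only through their PB-treated groups. Cyp2c55, a PB-inducible P450 on chromosome 19, went from 17.3 to 336 CPM in C57BL/6 and from 23.7 to 481 CPM in B6C3F1. Nebl, the actin-binding protein nebulette on chromosome 2, had a log2 FC of 4.09 and 4.28. By the deviations from group means, which hold no PB effect, the genes of highest r included Rian at 0.93, Mup1 at 0.92, Mup8 at 0.91 and Cyp1a2 at 0.90 over 18 mice. Mup1 and Mup8 are major urinary proteins of a family of near-identical genes, whose reads are uncertain. Without vehicle-treated B6C3F1 mouse 3 these became 0.90, 0.84, 0.85 and 0.86. Ranked by r over 18 mice, Mirg was at place 6 (0.90), Rtl1 at 151 (0.70) and AF357359 at 978 (0.48). Genes outside the window thus followed Meg3 as closely as Mirg did.

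At the level of chromatin, none of the 11 DHSs in the window covered an annotated start of Meg3, Rian, Mirg, Dlk1 or Rtl1. DHSs 1 and 2 lay on the far side of Dlk1, 105 and 103 kb before the Meg3 start, and DHSs 3 to 7 between 28.3 and 7.45 kb before it. DHS 8, at chr12:109542802-109543214, was the nearest to the Meg3 start, 2.01 kb downstream in an intron. DHS 9 lay 7.96 kb before the Rian start in an intron of Rtl1, DHS 10 39.1 kb after the Mirg start and DHS 11 64.1 kb after it. The highest mean normalized count was 476, at DHS 11, and DHS 5 was at 65.5. The normalized count is the number of reads in a DHS times 1 factor per mouse.

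PB changed none of the 11 DHSs past the same cutoffs, tested within each strain by limma on log2(normalized count + 1) over all DHSs. The count was 0 of 11 in C57BL/6, against 0.367% of all DHSs, and 0 of 11 in B6C3F1, against 0.19%. At an unadjusted p under 0.05 there were 2 in each strain, DHSs 5 and 10 in C57BL/6 and DHSs 5 and 8 in B6C3F1. Of all 98170 DHSs, 7615 in C57BL/6 and 8997 in B6C3F1 had such a p. The edgeR quasi-likelihood test on recovered reads also called 0 in each. In simulated counts for PB in B6C3F1, the limma test found 32 of 100 DHSs that changed 2-fold and 97 of 100 that changed 4-fold, among 98170, so a change of about 2-fold can be missed. The simulation gave every DHS the same relative spread between mice, so the rate for a single DHS may differ.

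DHS 5, whose sequence with its CpG dinucleotides and repeats is given above, had the largest increase of the 11 DHSs in both strains. The study lists this DHS because it called it for PB in B6C3F1, and not in C57BL/6, from these same samples. The rank and the separate groups of DHS 5 in B6C3F1 are therefore not an independent finding. In C57BL/6 its normalized count was 53.6, 43.4, 73.0 and 66.0 in vehicle-treated mice 1, 2, 3 and 5 and 74.1, 82.4, 98.2, 76.6 and 79.1 in PB-treated mice 1 to 5. The groups did not overlap, although vehicle-treated mouse 3 lay just below the lowest PB-treated mouse (log2 FC 0.49, SE 0.19, limma FDR 0.440). In B6C3F1 it was 43.3, 49.1, 25.8 and 36.5 with vehicle and 73.7, 69.8, 69.8, 82.5 and 81.5 with PB, again without overlap (log2 FC 0.98, SE 0.25, limma FDR 0.0887). These counts came from 54 to 172 reads per C57BL/6 mouse and from 7 to 83 per B6C3F1 mouse, with 7 in vehicle-treated mouse 3. Without that mouse the log2 FC in B6C3F1 was 0.80 (FDR 0.157). With all 18 mice in the fit the FDR was 0.00916 in B6C3F1, past the cutoff, and 1.00 in C57BL/6. Groups that did not overlap were found for 3.15% of all DHSs in C57BL/6 and 3.53% in B6C3F1, and for 2 of 11 and 1 of 11 in the window.

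The strain difference in the response of DHS 5 was 0.49 on the log2 scale (95% interval -0.12 to 1.10, limma FDR 0.907), and no DHS was called for this contrast by limma or edgeR (0% of 98170, with 5294 at an unadjusted p under 0.05 in limma). Among PB-treated mice DHS 5 was at 82.1 ± 9.52 in C57BL/6 and 75.4 ± 6.18 in B6C3F1 (SD, n = 5 each), and among vehicle-treated mice at 59.0 ± 13.2 and 38.7 ± 10.0 (SD, n = 4 each, limma FDR 0.101). Most other DHSs of the window were also lower in B6C3F1, as given below, so this direction is not particular to DHS 5. Its relation to the strain difference in Meg3 RNA was not tested.

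**Figure D3:**
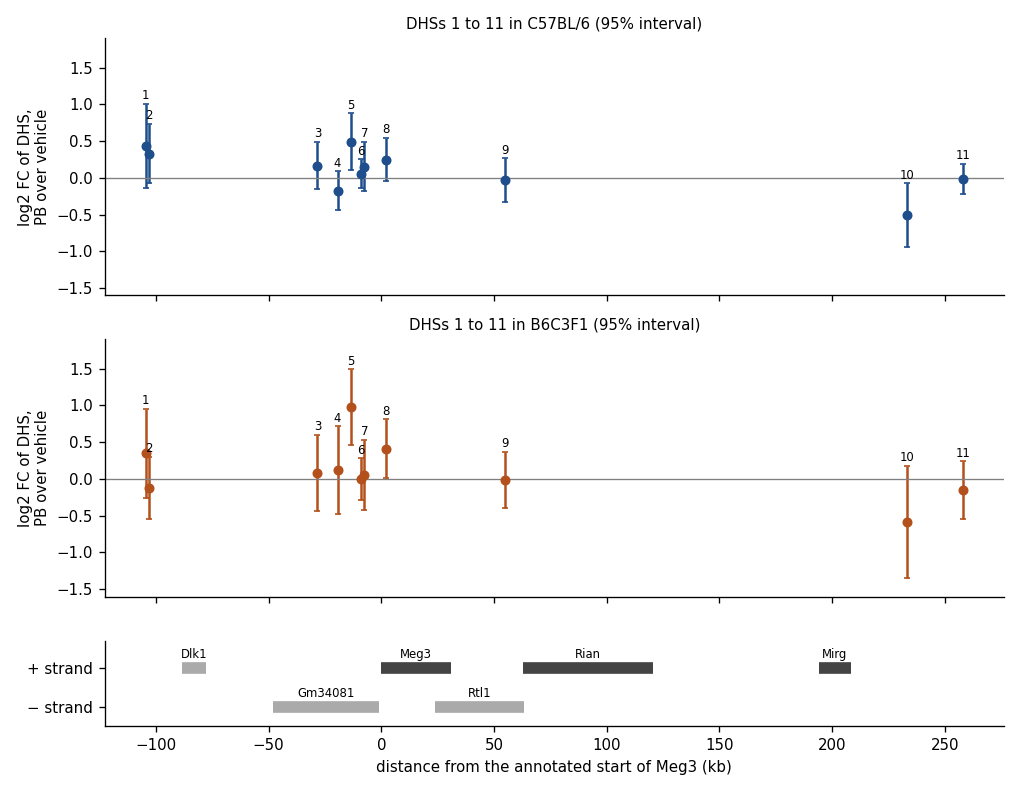
Log2 FC of PB over vehicle with its 95% interval for DHSs 1 to 11 against the distance of their centre from the Meg3 start in kb, for C57BL/6 and B6C3F1, above the annotated genes by strand (the 3 genes dark). DHS 5, 13.3 kb before the start, has the highest value in both strains, 0.49 and 0.98, and the other intervals include 0 except that of DHS 10 in C57BL/6 and, just above 0, that of DHS 8 in B6C3F1.

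DHS 8 in the Meg3 intron had overlapping groups in both strains. It was 125 to 167 with vehicle and 144 to 207 with PB in C57BL/6 (log2 FC 0.25, 95% interval -0.05 to 0.54), and 114 to 200 and 146 to 241 in B6C3F1 (0.41, 0.01 to 0.81, limma FDR 0.534). DHS 10 went the other way. It was 45.5, 68.3, 49.7 and 73.4 with vehicle and 36.0, 41.8, 44.2, 45.2 and 36.3 with PB in C57BL/6, with no overlap and a log2 FC of -0.51 (limma, SE 0.21, FDR 0.509), and -0.58 (SE 0.36, FDR 0.670) with overlap in B6C3F1. Summed over the 11 DHSs, the normalized count was 2239 ± 60.4 and 2298 ± 170 in vehicle- and PB-treated C57BL/6 mice and 1695 ± 193 and 1743 ± 138 in B6C3F1 mice (SD, n = 4 and 5). The PB and vehicle ranges of this sum were not tested against each other.

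**Figure D4:**
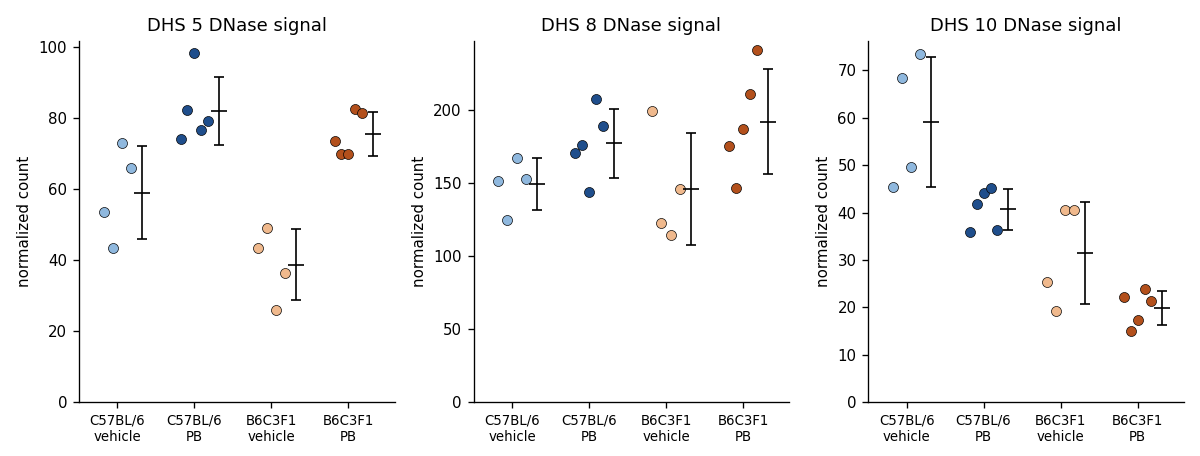
Normalized DNase-seq count per mouse at DHS 5, DHS 8 and DHS 10 in the 4 groups; points are mice and the bar at the right of each group its mean and SD. At DHS 5 the PB-treated mice of each strain lie above its vehicle-treated mice (69.8 to 98.2 against 25.8 to 73.0 over both strains), at DHS 8 the groups overlap, and at DHS 10 PB-treated C57BL/6 mice lie below the vehicle-treated ones.

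Between the strains, most DHSs of the window were lower in B6C3F1. The log2 difference was above 0 for 2 of 11 with vehicle and for 3 of 11 with PB. Over all DHSs its median was -0.04 and -0.02. With vehicle 6024 of all DHSs were called higher in B6C3F1 and 4257 lower, and with PB 3472 and 6075. DNase-seq depth was lower in B6C3F1, as given above, and its part in these differences was not tested. In vehicle-treated mice 2 of 11 were called, against 10.5% of all DHSs: DHS 2 near Dlk1 was higher in B6C3F1 by 0.95 (SE 0.20, limma FDR 0.00244) and DHS 3, 28.3 kb before Meg3, lower (log2 difference -1.06, SE 0.19, FDR 0.00101). Groups did not overlap for 7 of 11, against 27.8%. In PB-treated mice 3 of 11 were called, against 9.72%: DHSs 3, 10 and 11, at -1.14 (FDR 0.000478), -1.01 (FDR 0.00794) and -0.68 (FDR 0.000985). Groups did not overlap there for 4 of 11, against 15.5%. With 11 DHSs, the counts of calls are near the background shares. DHS 9, between Meg3 and Rian, was not called but had separate groups with vehicle (-0.47, limma FDR 0.0444) and with PB (-0.45, FDR 0.0399). DHS 3 was 157 to 247 in vehicle-treated C57BL/6 and 68.5 to 114 in vehicle-treated B6C3F1 mice, and 165 to 270 and 54.5 to 143 with PB. The call of DHS 10 was lost in 8 of 10 fits that each left out 1 mouse. Whether sequence differences between the parental strains move with these values was not tested here.

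Across mice, DHS 5 followed Meg3 less closely than Rian and Mirg did, a difference that was not tested. The deviations of DHS 5 from its group means had r = 0.69 with Meg3 (rho 0.58; permutation p = 0.0232 and 0.0337, adjusted 0.0348 and 0.0506), 0.47 with Rian (rho 0.37; p = 0.106 and 0.165) and 0.58 with Mirg (rho 0.53; p = 0.0564 and 0.0581) over 18 mice. Without the 2 mice farthest from the median of the RNA, r was 0.34, 0.44 and 0.25, so the relation with Meg3 rests on those mice. Without vehicle-treated B6C3F1 mouse 3 it was 0.44, 0.16 and 0.36 over 17 mice.

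**Figure D5:**
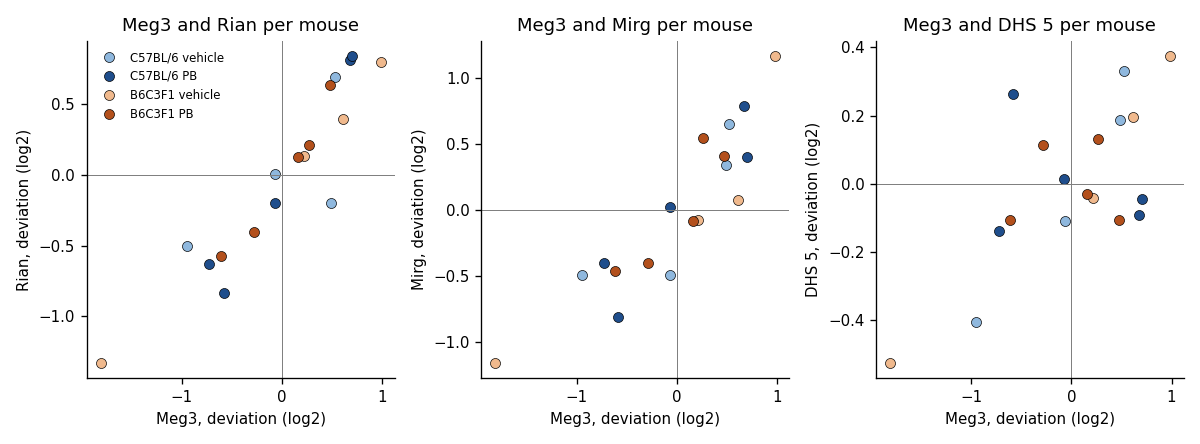
Deviation of each of 18 mice from its group mean, with Meg3 on the x axis and Rian, Mirg or DHS 5 on the y axis, in log2 of CPM + 0.1 or of normalized count + 1, coloured by group. Meg3 and Rian (r = 0.93) and Meg3 and Mirg (r = 0.90) lie close to a line, whereas Meg3 and DHS 5 (r = 0.69) scatter, with vehicle-treated B6C3F1 mouse 3 at the lower left.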

How the data were processed

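Liver RNA and DNase I-digested nuclei of the same 18 mice were sequenced. Per the labels and the study's methods, RNA reads (stranded, rRNA-depleted) were aligned to mm10 with STAR 2.4.0f1 and counted by strand in RefSeq genes, discarding reads that overlap more than 1 gene, and the authors deposited TMM-scaled CPM (edgeR 3.12.1). DNase-seq reads of both strains were aligned to mm10 with Bowtie2 2.1.0, after a check against an imputed C3H/HeJ genome, and the authors deposited a normalized count signal per DHS (MACS2 2.1.1.20160309 peaks found in at least 3 samples, DiffBind 1.16.3). Multiples of the value of 1 read returned whole reads in both tables within a tolerance of 0.01. The 3 members and all gene lists were chosen with earlier results of these data known.

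RNA was tested by limma 3.58.1 (robust moderation, mean-variance trend) on log2(CPM + 0.1) with all 18 mice, for genes at CPM ≥ 0.4 in at least 3 mice of a group, and DHSs on log2(normalized count + 1) with the mice of each contrast, with Benjamini-Hochberg adjustment over all features. A call needed an FDR of at most 0.01 and an absolute log2 FC of at least 0.58. Single values used two-sided exact permutation tests, and correlations of deviations 100000 permutations within groups. Alternatives were other pseudocounts, filters, scalings, sample weights and sample sets, edgeR 4.0.16 and DESeq2 1.42.0 on recovered reads, a replicate block and leaving out each mouse. Leaving out vehicle-treated B6C3F1 mouse 3 from correlations was added after seeing the data. Named genes are the members, the rows and DHSs of the window near their starts or with a call or an unadjusted p under 0.05 for PB, the 5 genes most like Meg3 by each measure (1 of them is not reported here), and up to 4 per list with the largest change in B6C3F1. The tests were tested on simulated data: 63 of 100 genes changed 2-fold and 100 of 100 changed 4-fold were called among 13838 for PB in B6C3F1. Every simulated feature had the same relative spread between mice, and only features above a minimum mean read count were changed. These rates therefore need not hold for Meg3, Rian, Mirg or DHS 5. Gene names were matched to RefSeq for all but 34 of 13862 rows.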

Additional observations from a re-analysis of the deposited data

Results flagged for a closer look

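The ratio of Rian to Meg3 CPM was 1.44 in vehicle-treated B6C3F1 mouse 3, from 23 and 16 reads, while the next highest of the other 3 mice of its group was 0.929. The mouse was set apart because its gap to the nearest mouse took 0.856 of the range of the group. It was 1 of 72 groups of values examined, and chance sets apart about 1 in 20.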

How the results depend on the processing

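The PB change of Meg3, Rian and Mirg was positive in all 126 values over both strains and every setting, and 56 of 60 alternatives in C57BL/6 and 57 of 60 in B6C3F1 kept the side of the cutoff. The exceptions were Mirg in C57BL/6 with a pseudocount of 1 (log2 FC 0.67, FDR 0.01998), Meg3 in B6C3F1 with only the mice of the contrast (3.85, FDR 0.0103) and the replicate block. With the last digit of the animal number as a replicate block, log2 FC in C57BL/6 was 3.96 for Meg3 (FDR 0.0352), 3.91 for Rian (0.0325) and 2.19 for Mirg (0.0268), and in B6C3F1 3.79 for Meg3 (0.0222) and 4.17 for Rian (0.0135), all short of FDR 0.01, while Mirg in B6C3F1 stayed called at 3.35. Between vehicle- and PB-treated mice of the same digit, correlations of their deviations ran from -0.12 to 0.06 in RNA and from -0.20 to 0.24 in DNase-seq. No mice of different digits were set beside them, so whether the digits pair the mice was not tested. Leaving out each mouse gave 3.81 to 4.31 and 3.25 to 4.18 for Meg3, 3.90 to 4.34 and 3.78 to 4.49 for Rian and 2.19 to 2.60 and 3.10 to 3.88 for Mirg in C57BL/6 and B6C3F1, and each stayed called. Meg3 between vehicle-treated strains ran from 1.12 to 2.05 when each mouse was left out and from 0.94 to 1.78 over the other settings, and passed the cutoff without B6C3F1 mouse 3 (2.05) and in DESeq2 (1.76, FDR 0.00764). For DHSs, 1041 of 1056 alternatives kept the call. The window count for PB in B6C3F1 was 1 with all 18 mice in the fit against 0, and between vehicle-treated strains 1 without C57BL/6 mouse 1 and 4 without B6C3F1 mouse 3 against 2. Table-wide calls for PB in B6C3F1 ran from 58 to 630 DHSs (187 in the fit used) and from 182 to 376 genes (277). The causes were not tested. Mirg, Rtl1 and AF357359 without PB rest on 0 to 12 reads a mouse, which limits their fold changes.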
